A study of Mus musculus with 11 samples.

Results

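Potassium channel genes were taken as the protein-coding genes on chromosomes 1 to 19 whose symbol starts with Kcn in the mouse annotation (GENCODE M21, build GRCm38, also called mm10), which gave 92 of 20807 genes in 21 subfamilies by the letters after Kcn. Their chromatin was examined for H3K27me3, trimethylation of lysine 27 of histone H3, in the embryonic forebrain of wild-type C57BL/6J mice. The series holds 11 CUT&Tag samples, a method in which an antibody directs a transposase to cut beside the marked nucleosomes. There were 2 samples of the medial ganglionic eminence (MGE) and 3 each of the caudal (CGE) and lateral (LGE) ganglionic eminences and of the somatosensory cortex (CTX). The authors merged the samples of each region before they called broad peaks, so each region is 1 list, no replicate error can be given, and every difference below is a description without a test. The labels name E12.5 and E14.5 embryos without an age per sample, whereas the study's text places its CUT&Tag at E12.5. Tissue came from pooled embryos of both sexes, and the protocol speaks of combining the nuclei of all regions before the reaction, while each sample carries the label of a single region.

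Potassium channels let potassium ions leave or enter the cell and thereby set the resting potential, shape action potentials and limit repetitive firing. Voltage-gated, inward rectifier, two-pore-domain and calcium- or sodium-activated families form pores, electrically silent subunits join voltage-gated pores and modify them, and auxiliary subunits bind pores and alter their gating or traffic. H3K27me3 is deposited by Polycomb repressive complexes, often over CpG-rich starts of developmental genes that are silent.

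The measure was the share of a start window, the 2 kb on either side of the annotated 5′ end of the gene, that lay under peaks, and a gene with at least 50% of this window covered was called marked. The lists held 14978 (MGE), 18726 (CGE), 16461 (LGE) and 18263 (CTX) peaks on chromosomes 1 to 19, which covered 24.0, 32.2, 25.9 and 30.5 Mb. They give no read counts per peak. The study's methods state the reads per library, and the merged totals run in the same order as the peak counts, from MGE as the shallowest to CGE as the deepest. Of the 10 region markers some were as the labels would have it: *Lhx6*, an interneuron factor of the MGE, had its lowest window coverage in MGE (69.2% against 100% in the other lists), and the cortical genes *Emx1*, *Neurog2* and *Lhx2* had theirs in CTX, *Lhx2* only narrowly (29.8% against 31.4% in LGE). Others were not: *Nkx2-1*, which defines the MGE, was 100% covered in all 4 lists, *Emx1* was still 87.1% covered in CTX, and the cortical gene *Neurod2* had less coverage in CGE (47.7%) and LGE (49.1%) than in CTX (54.5%). The LGE marker *Sp8* had 47.6% in LGE and 0% in CTX, and the pan-eminence *Dlx2* had 44.8% in CGE and 41.6% in CTX. *Nr2f2*, a CGE marker, was near equal in CGE, LGE and CTX (27.3 to 27.6%) and higher in MGE (59.7%). *Gad1*, a GABAergic gene, was at 0% throughout.

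The sequences immediately upstream of the starts show how differently the mark fell on these genes, and 5 are printed because they span its patterns. Each is the 250 bases upstream of the RefSeq start (GRCm38.p6), 5′ to 3′ on the strand of the gene, with every CG dinucleotide in capitals. Of the 92 genes, 68 had an entry in the RefSeq promoter table. At least 1 CG stood in 92.4% of 31396 such stretches of all genes, with a median of 6 per stretch.
Kcnk12: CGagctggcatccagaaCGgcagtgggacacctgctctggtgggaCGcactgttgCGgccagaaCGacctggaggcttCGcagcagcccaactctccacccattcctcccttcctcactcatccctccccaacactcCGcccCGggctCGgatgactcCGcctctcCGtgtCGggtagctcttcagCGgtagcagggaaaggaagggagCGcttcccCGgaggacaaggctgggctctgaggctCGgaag
Kcnk1: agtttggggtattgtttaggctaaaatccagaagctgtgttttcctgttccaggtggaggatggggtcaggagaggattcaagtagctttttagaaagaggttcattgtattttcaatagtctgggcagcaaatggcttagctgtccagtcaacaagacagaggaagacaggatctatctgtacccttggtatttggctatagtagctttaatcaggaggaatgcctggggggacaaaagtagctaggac
Kcnc1: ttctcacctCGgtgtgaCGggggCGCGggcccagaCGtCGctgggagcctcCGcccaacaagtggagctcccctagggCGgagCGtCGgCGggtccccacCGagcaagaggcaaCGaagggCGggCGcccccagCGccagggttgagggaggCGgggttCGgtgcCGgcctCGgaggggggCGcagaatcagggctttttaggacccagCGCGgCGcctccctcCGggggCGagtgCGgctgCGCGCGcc
Kcnd2: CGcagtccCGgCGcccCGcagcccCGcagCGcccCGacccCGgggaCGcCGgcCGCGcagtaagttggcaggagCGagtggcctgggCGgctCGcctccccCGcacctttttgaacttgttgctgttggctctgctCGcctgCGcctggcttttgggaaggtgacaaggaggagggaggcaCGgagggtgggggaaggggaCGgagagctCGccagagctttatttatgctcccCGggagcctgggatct
Kcnj16: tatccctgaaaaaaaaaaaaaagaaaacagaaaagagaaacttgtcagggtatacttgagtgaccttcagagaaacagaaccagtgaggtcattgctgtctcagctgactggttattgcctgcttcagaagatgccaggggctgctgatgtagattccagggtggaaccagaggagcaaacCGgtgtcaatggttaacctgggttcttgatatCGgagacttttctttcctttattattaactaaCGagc
The stretch of *Kcnk12* (chr17:87797995-87798244, minus strand, 16 CG) lay wholly under peaks in all 4 lists. So did that of *Kcnk1* (chr8:125994852-125995101, plus strand), which holds 0 CG, although the whole start window of *Kcnk1* holds 122. The stretch of *Kcnc1* (chr7:46396218-46396467, plus strand, 30 CG) was 100% covered in CTX and 0% covered in MGE, CGE and LGE. That of *Kcnd2* (chr6:21215096-21215345, plus strand) holds 22 CG and that of *Kcnj16* (chr11:110967783-110968032, plus strand) holds 3, and neither had a covered base in any list.

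Potassium channel genes were marked several times more often than protein-coding genes at large. In MGE 43 of the 92 were marked (46.7%, against 10.0% of all 20807 genes), in CGE 47 (51.1% against 12.6%), in LGE 43 (46.7% against 10.5%) and in CTX 53 (57.6% against 11.2%). In all 4 lists 37 were marked (40.2% against 7.77%) and in at least 1 list 57 (62.0% against 14.9%). The window of 18 genes had no covered base in any list (19.6% against 59.9%). Mean window coverage in MGE, CGE, LGE and CTX was 41.7%, 44.2%, 40.8% and 46.3% (values below keep this order where none is given), against 11.8%, 13.7%, 12.3% and 13.1% over all genes. Many windows lay near the threshold: in CTX 7 genes were between 40 and 50% covered and 20 between 50 and 60%. At a threshold of 75% the genes marked in all 4 lists numbered 13, and the share of all genes at that threshold is not given here.

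**Figure D1:**
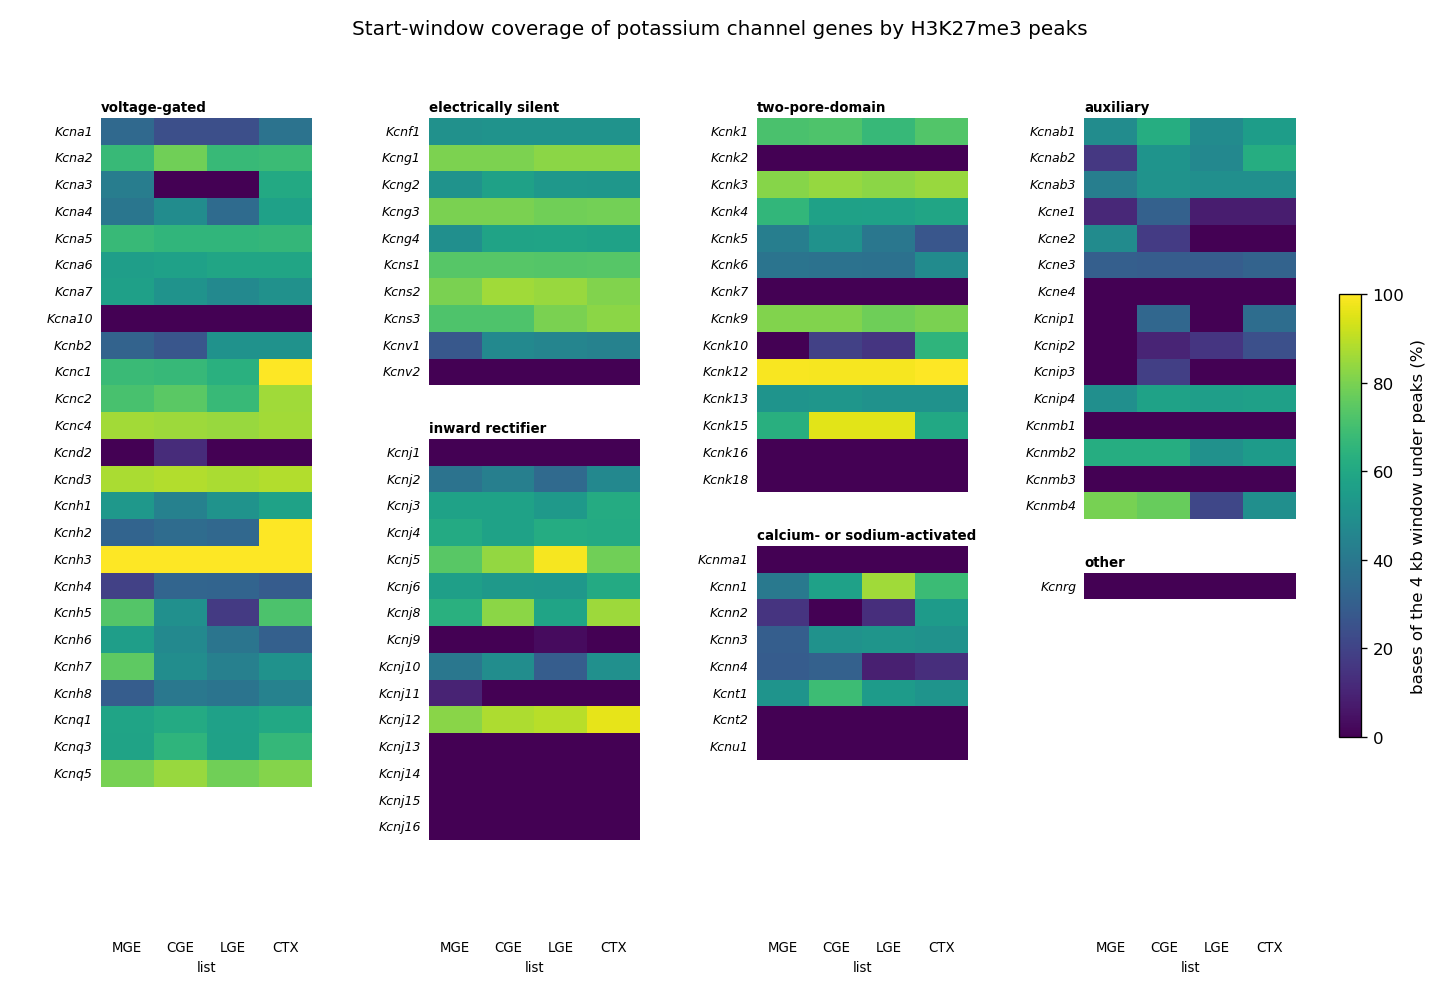
Share of the 4 kb start window under H3K27me3 peaks for potassium channel genes (rows, grouped by channel class; 88 of the 92 are drawn) in the 4 lists (columns). Most rows have about 1 colour across the lists, 18 are at 0% throughout, and *Kcnh2*, *Kcnk10* and *Kcnc1* stand out in CTX.

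Among the 29 voltage-gated pore genes 15 were marked in all 4 lists and 1, *Kcna10*, had no covered base in its window. The Kcnq genes, whose products carry slow, non-inactivating currents, were marked in every list in 5 of 5 cases. *Kcnq3*, which encodes a subunit of the neuronal M-current, had 57.8% (MGE), 65.2% (CGE), 57.4% (LGE) and 66.6% (CTX) of its window covered. *Kcnq5*, whose product also carries M-type currents, had 79.4%, 84.6%, 78.5% and 81.2%. The values of each of these 2 genes lay within 10 points of one another across the regions.

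The Kcnc genes encode the fast delayed rectifiers that let interneurons fire at high rates, and 4 of 4 were marked in every list. *Kcnc4* had 86.2% (MGE), 85.3% (CGE), 84.4% (LGE) and 86.2% (CTX) of its window covered and *Kcnc2* 71.0%, 74.5%, 67.4% and 85.8%. In the Kcna subfamily, which forms axonal channels, 3 of 8 were marked in all lists, among them *Kcna2* with 67.4%, 78.5%, 67.4% and 68.2%.

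The A-type channel genes *Kcnd2* and *Kcnd3*, whose products activate below the firing threshold, differed from each other. *Kcnd3* had 87.3% (MGE), 88.4% (CGE), 87.4% (LGE) and 88.4% (CTX) of its window covered, while *Kcnd2* had 0% in MGE, LGE and CTX and 12.2% in CGE, from a single peak of 490 bases with a −log10 q of 1.38. *Kcnd2* was thus close to free of peaks in all 4 regions although its window holds 193 CpG dinucleotides, nearly as many as that of *Kcnd3* (213).

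In the Kcnh subfamily, which holds the ether-a-go-go family, 1 of 8 was marked in all lists and 0 were without a covered base. *Kcnh3* was that gene, and its window was 100% covered in all 4 lists by single peaks of 6136 to 6667 bases. The other 7 members of the subfamily were covered only in part in at least 1 list, and the marked members numbered 5 (MGE), 1 (CGE), 2 (LGE) and 5 (CTX). No other subfamily changed its count between lists by more.

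The electrically silent subunits had the highest share of marked genes, 7 of 10 in all 4 lists (*Kcnf1*, *Kcng1*, *Kcng2*, *Kcng3*, *Kcns1*, *Kcns2* and *Kcns3*). *Kcns2* had 79.8%, 85.8%, 84.7% and 81.2% of its window covered in MGE, CGE, LGE and CTX, and *Kcng3* 79.7%, 79.7%, 78.3% and 78.7%. *Kcnf1* stood at the threshold with 50.02%, 51.2%, 51.2% and 51.4%. The remaining 3 were *Kcng4*, just under the threshold in MGE alone (49.4%, 58.0%, 58.3% and 57.8%), and the Kcnv genes, with *Kcnv1* at 27.1%, 47.2%, 45.5% and 44.0% and *Kcnv2* at 0% throughout.

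Among the 15 inward rectifier genes 6 were marked in each list, the same 6 in all of them (*Kcnj3*, *Kcnj4*, *Kcnj5*, *Kcnj6*, *Kcnj8* and *Kcnj12*), and 5 had no covered base. *Kcnj3*, *Kcnj5*, *Kcnj6* and *Kcnj9* encode subunits of the G-protein-gated channels. *Kcnj3* had 57.7%, 57.7%, 53.8% and 61.3% of its window covered and *Kcnj6* 56.2%, 53.8%, 53.3% and 60.9%. *Kcnj5* reached 98.8% in LGE, with 74.2% in MGE, 83.7% in CGE and 78.4% in CTX. *Kcnj9* had 0% of its window covered in MGE, CGE and CTX and 3.00% in LGE, so the 4 subunit genes differed at the window. *Kcnj9* was not free of peaks, since 72.1% of its coding bases were covered in each list. *Kcnj10*, the main inward rectifier of astrocytes, was below the threshold in all lists with 39.6%, 48.5%, 29.0% and 49.95%. *Kcnj2*, a strong rectifier that holds the resting potential, was also below it with 38.0%, 42.9%, 34.2% and 46.6%. *Kcnj1*, *Kcnj13*, *Kcnj14*, *Kcnj15* and *Kcnj16* had no covered base, and of these *Kcnj1* is best known from the kidney.

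Of the 14 two-pore-domain genes, which carry leak currents, 7 were marked in all lists and 4 had no covered base. *Kcnk12* had 99.1%, 98.7%, 98.6% and 100% of its window covered in MGE, CGE, LGE and CTX. The acid-sensitive leak channel genes *Kcnk3* and *Kcnk9* were alike, with 82.0%, 84.3%, 82.4% and 84.5% for *Kcnk3* and 81.2%, 81.0%, 78.0% and 79.9% for *Kcnk9*. *Kcnk15*, of the same branch, had a longer covered stretch in CGE (95.7%) and LGE (95.5%) than in MGE (63.0%) and CTX (59.9%). *Kcnk4*, a mechanosensitive channel gene, was marked at 65.7%, 57.2%, 56.8% and 58.8%, whereas its relative *Kcnk2* was at 0% in all lists.

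The calcium- or sodium-activated and the auxiliary genes had the fewest members marked in all 4 lists, though not in every single list: in CTX 4 of 8 genes of the first class were marked, and in CGE 6 of 15 of the second, the same share as of the inward rectifiers. In the first class 1 of 8 was marked in all lists, *Kcnt1*, a sodium-activated channel gene, with 51.8%, 68.7%, 54.5% and 51.9%. The small-conductance channel genes were marked in some lists: *Kcnn1* had 40.5%, 57.0%, 85.8% and 68.2%, and *Kcnn3* had 29.3%, 50.9%, 52.3% and 50.9%. In the auxiliary class 1 of 15 was marked in all lists, *Kcnmb2*, a β subunit of the large-conductance calcium-activated channel, with 62.0%, 62.0%, 50.3% and 54.4%. That class had 2 (MGE), 6 (CGE), 2 (LGE) and 4 (CTX) marked genes. All 3 Kcnab genes, cytoplasmic β subunits, passed the threshold in CGE and 0 in MGE, but *Kcnab1* (48.2% in MGE, 62.0% in CGE) and *Kcnab3* (42.4%, 51.2%) did so by small steps. *Kcnab2* differed more, with 16.2%, 51.7%, 46.7% and 61.9%, and its window also holds the start of another gene, *Nphp4*.

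**Figure D2:**
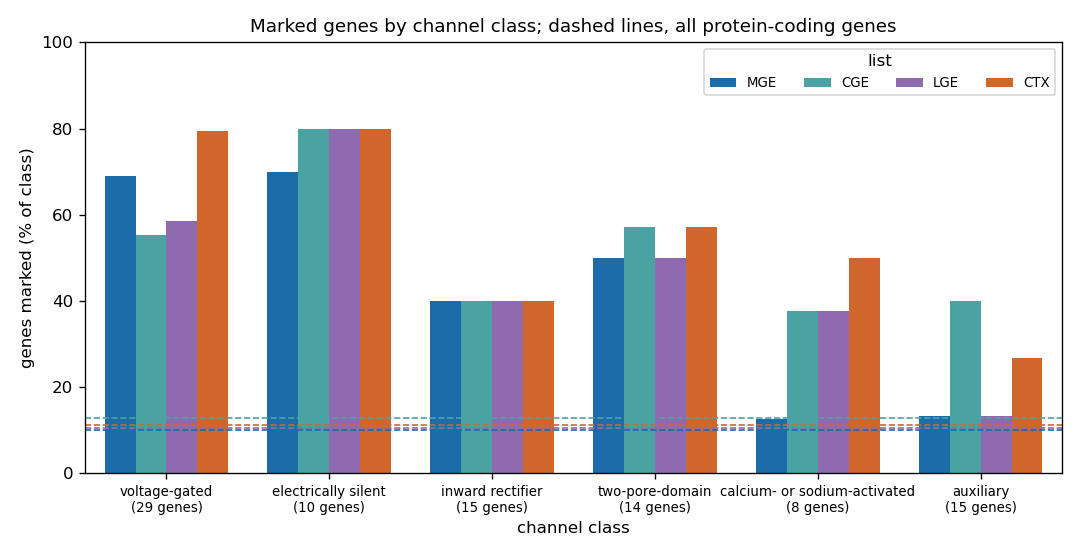
Share of the genes of each channel class that were marked (bars, by list), with the share of all protein-coding genes as dashed lines. The electrically silent genes stand highest in every list, and the bars of the inward rectifiers are level at 40% across lists.

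Several genes that looked bare at the annotated 5′ end of the gene were covered at another annotated transcript start. *Kcnma1*, which encodes the pore of the large-conductance calcium-activated channel, had no covered base at its outermost 5′ end. At a start 10.5 kb further in, the 2 kb on either side were covered over 80.1%, 81.7%, 77.5% and 81.2%. *Kcnip3* encodes a calcium-binding protein that joins A-type channels, and was covered over 0%, 18.4%, 0% and 0% at the outermost end against 89.8%, 90.7%, 98.2% and 100% at a start 39.6 kb inside. The related *Kcnip1* had 0%, 33.0%, 0% and 35.4% at its outermost end and 72.3%, 80.8%, 43.2% and 73.1% at a start 149.6 kb inside. *Kcnk2* had 42.5%, 41.3%, 26.7% and 73.2% at a start 58.9 kb inside, marked in CTX only. *Kcna1* and *Kcne3* were marked in all lists at starts 1.59 and 2.19 kb inside. Taking the best-covered start of each gene separately in each list, 42 of the 92 genes were marked in all lists (45.7%), against 9.82% of all genes treated likewise. *Kcnd2* has 1 annotated start and kept its values.

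The design sets CTX, which gives rise to glutamatergic neurons, beside 3 regions that give rise mainly to GABAergic neurons. Window coverage ranged by at least 50 points over the lists in 6 genes (*Kcna3*, *Kcnh2*, *Kcnh5*, *Kcnk10*, *Kcnn2* and *Kcnmb4*), 6.52% against 1.54% of all genes. Among genes marked in at least 1 list these were 6 of 57 (10.5%) against 10.3%, so that a wide range was about as common among marked channel genes as among marked genes at large. Limited to peaks with q under 0.001, 10 channel genes ranged this widely, which was 17.9% of the marked channel genes against 18.9% of all marked genes. CTX exceeded every ganglionic eminence by at least 25 points in 4 genes (*Kcnh2*, *Kcnk10*, *Kcnc1* and *Kcnn2*; 4.35% against 0.932%) and fell below each of them by that much in 0 (against 0.678%). *Kcnk5*, an alkali-activated leak channel gene with 42.4%, 51.0%, 39.6% and 26.8%, was below by that much when weaker peaks were left out in any of 3 ways. The shares for CTX are taken over all genes. Of these 59.9% had no covered base in any list and so could not be called, against 19.6% of the channel genes.

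*Kcnh2* encodes a channel of the ether-a-go-go-related branch that repolarizes cardiac and neuronal membranes. Its window (5′ end at base 24351604 of chromosome 5, minus strand) was 100% covered in CTX, against 31.98% in MGE, 35.1% in CGE and 33.4% in LGE. The 3 peaks of the eminences began 721, 594 and 662 bases downstream of the 5′ end, whereas the CTX peak of 5096 bases began upstream of it, at position -2407. The peaks ended near each other, between 2688 and 3531 bases downstream, so the lists differed at the upstream edge. The CTX peak was not the strongest by −log10 q (5.71 against 3.20, 6.25 and 10.0), and the difference of 66.5 points between CTX and the mean of the eminences was the same under each of the 4 other ways of using the peak lists.

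*Kcnk10*, a mechanosensitive leak channel gene related to *Kcnk2*, had 64.9% in CTX, against 0% in MGE, 19.2% in CGE and 15.5% in LGE. In CTX a peak of 5578 bases (−log10 q of 3.16) ran from position -595 to 4982 bases downstream, while the peaks of CGE and LGE spanned 768 and 619 bases. *Kcnc1* had 67.8%, 67.2%, 63.3% and 100%: each eminence had 1 peak on either side of the start with a gap between them, at the stretch printed above, and CTX had a single peak of 4993 bases (−log10 q of 36.1). With peaks under 3 kb apart joined, *Kcnc1* no longer differed between lists (a difference of 0 against 33.9 points). *Kcnn2*, a small-conductance calcium-activated channel gene, had 14.98%, 0%, 13.0% and 54.5%, from peaks of 599 bases in MGE, 520 in LGE and 2182 in CTX, all over the 5′ end. With the best-covered annotated start chosen separately in each list, the 4 values were 43.3%, 49.6%, 63.3% and 66.8%. The difference was then 14.7 points in place of 45.2, though the values need not come from the same start.

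The remaining 3 genes with a wide range also differed widely among the eminences. Their peaks were weak, with −log10 q of 1.34 to 5.86. Those of *Kcnk10* were as weak, at 1.90 in CGE, 3.72 in LGE and 3.16 in CTX. *Kcna3*, a channel gene best known from T lymphocytes, had 41.8% in MGE, 0% in CGE and LGE and 60.4% in CTX. Its peaks had −log10 q of 2.04 and 1.34, and with the lists cut to the same number of strongest peaks the CTX peak was lost and the difference of 46.4 points turned to -13.9. *Kcnmb4*, the neuronal β subunit of the large-conductance channel, had 79.4%, 76.9%, 21.2% and 49.3%. Its 4 peaks ended between 1303 and 1319 bases downstream and differed at the upstream edge, and its difference of -9.88 points turned to 16.6 when peaks were limited to q under 0.001. *Kcnh5*, of the ether-a-go-go branch, had 73.3%, 49.98%, 16.9% and 71.8%, with LGE alone far below the others.

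**Figure D3:**
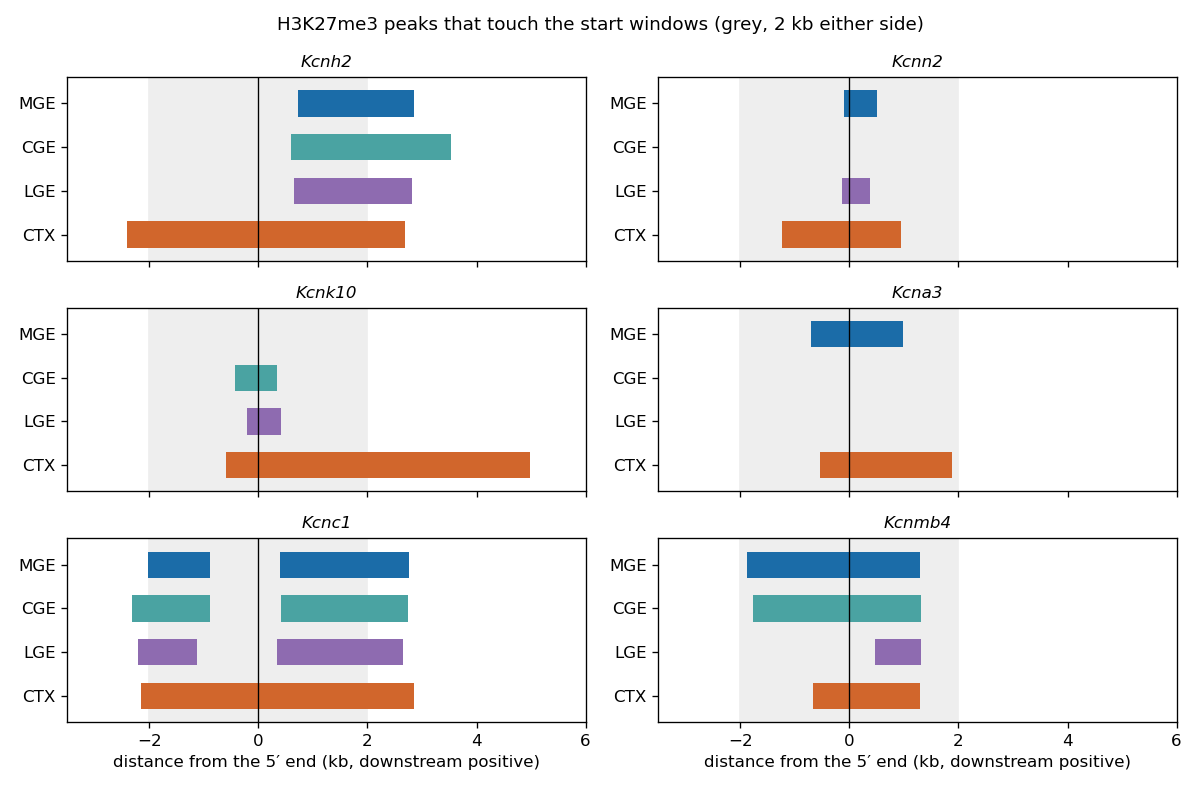
Peaks (bars, by list) touching the start windows of 6 genes, drawn by distance from the 5′ end in kb with the window in grey. For *Kcnh2*, *Kcnc1* and *Kcnk10* the CTX peak is the longest, and for *Kcnmb4* the 4 peaks share their downstream edge.

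Small excesses in CTX were more frequent than these large ones. CTX was above every eminence by any amount in 30 of the 92 genes (32.6% against 12.3% of all genes) and below each of them in 3 (*Kcnh6*, *Kcnk5* and *Kcnk15*; 3.26% against 6.40%). Among genes with a covered base in at least 1 list the shares were 40.5% against 30.6% above, and 4.05% against 16.0% below. By class these were 11 of 29 voltage-gated, 3 of 10 silent, 6 of 15 inward rectifier, 5 of 14 two-pore-domain, 1 of 8 calcium- or sodium-activated and 4 of 15 auxiliary genes. The mean of CTX minus the mean of the eminences was 4.11 points over the 92 genes (median 0.325) and 0.489 over all genes. A few genes supplied most of it, since without the 6 that differed by at least 25 points (*Kcnh2*, *Kcnk10*, *Kcna3*, *Kcnn2*, *Kcnc1* and *Kcnh5*) the mean of the other 86 was 1.26. By class, with all members kept, the mean was highest in the voltage-gated genes, at 7.90 points. It lay between 1.34 and 5.35 in the other 5 classes of pores and subunits. Of the 6 genes, *Kcnh2*, *Kcna3*, *Kcnc1* and *Kcnh5* are voltage-gated, with differences of 66.5, 46.4, 33.9 and 25.1 points. *Kcnn2* is in the class at 5.35. The order of the classes without these genes was not computed. Each list was also cut from its weakest peaks down to the covered bases of the MGE list. In the cut lists 27 of the 92 genes were above (29.3% against 7.77%) and 5 below (5.43% against 6.47%). Among genes with a covered base in at least 1 cut list the shares were 37.5% against 22.8% above, and 6.94% against 19% below. The part of read depth in these differences was not tested.

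On marked windows the peaks lay mainly downstream of the start. The 2 kb downstream were covered over 93.04 to 94.6% on average in the 4 lists and the 2 kb upstream over 45.6 to 46.5%. Over all marked genes these shares were 82.4 to 83.1% and 51.9 to 54.7%. More bases were covered downstream than upstream in 37 of 43 marked channel genes in MGE, 42 of 47 in CGE, 38 of 43 in LGE and 43 of 53 in CTX, or 81.1 to 89.4%, against 71.3 to 72.6% of all marked genes. In bins of 250 bases, coverage of the 92 genes was highest between 250 and 500 bases downstream (65.8%, 68.0%, 66.0% and 71.8%) and over all genes in the first 250 bases (20.2 to 24.0%). Upstream it was 0% from 5250 to 3500 bases before the 5′ end in MGE, CGE and LGE and from 5250 to 4500 in CTX, and at 10 kb on either side coverage was 2.76 to 4.35%, against 1.76 to 2.48% over all genes. Peaks on marked channel genes were as strong as on other marked genes in LGE and CTX (median −log10 q of 30.3 against 31.0, and 30.4 against 31.4) and MGE (20.3 against 19.97), and somewhat stronger in CGE (44.3 against 38.0). They were longer, with medians of 3113 to 3308 bases against 2848 to 2921.

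**Figure D4:**
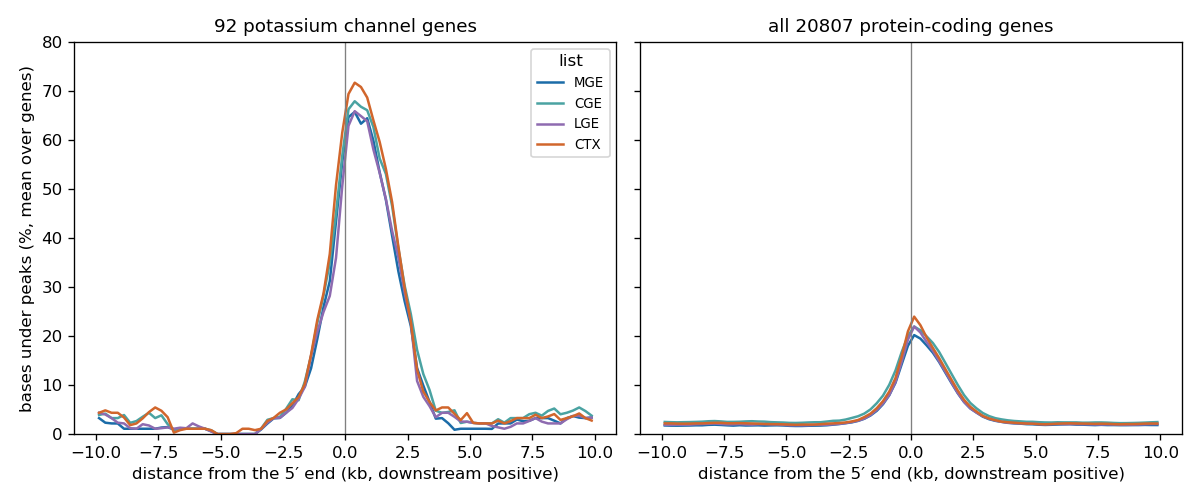
Share of bases under peaks in bins of 250 bases from 10 kb upstream to 10 kb downstream of the 5′ end, averaged over the 92 potassium channel genes (left) and all 20807 protein-coding genes (right), 1 line per list. The channel genes peak at 65.8 to 71.8% just inside the gene and all genes at 20.2 to 24.0%.

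Gene bodies were on average covered over 11.03%, 12.1%, 10.97% and 13.1% of their length, against 4.33%, 5.12%, 4.59% and 4.79% over all genes. Without the first 2 kb the means of the channel genes were 5.43%, 7.27%, 6.02% and 6.75%, so much of the body coverage lay at the start. Among the 10 genes with the highest body coverage were *Kcna1*, *Kcna3*, *Kcna5*, *Kcnf1*, *Kcns1*, *Kcnj8*, *Kcnk4*, *Kcnk15* and *Kcna7*, at 77.9%, 82.2%, 76.9% and 79.1%. In *Kcnf1*, *Kcng2*, *Kcnk3* and *Kcnk12* the whole coding sequence lay under peaks in all 4 lists. *Kcnj9* and *Kcnj14* showed another pattern: their windows were at or near 0%, yet 72.1% and 54.4% of their coding bases were covered, the same bases in number in each list. *Kcnj11*, the pore of an ATP-sensitive channel, had a body covered over 18.4%, 27.8%, 17.5% and 31.1% with 0% of its coding bases under peaks.

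CpG content, which the choice of genes did not use, went with the mark. The median number of CpG dinucleotides per window was 149 in the 37 genes marked in all lists, 115 in the 20 marked in 1 to 3 lists and 57 in the 35 marked in 0 lists, of which the 18 without a covered base had 47.5. Over all genes the same medians were 137, 119, 79 and 57. All genes were split by CpG count into 4 groups of like size. In the group with most CpG (131 to 388) 22 of 31 channel genes were marked in all lists (71.0% against 17.7% of all genes there), and in the next (89 to 130) 12 of 24 (50% against 10.5%). In the lower groups 3 of 28 (10.7% against 3.14%) and 0 of 9 (against 0.0188%) were marked. The share of channel genes marked in all lists was thus above that of all genes in each of the 3 upper groups. *Kcnd2* (193 CpG) and *Kcnj11* (136) were CpG-rich windows nearly without peaks, and *Kcnmb2* was marked in all lists with 56.

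**Figure D5:**
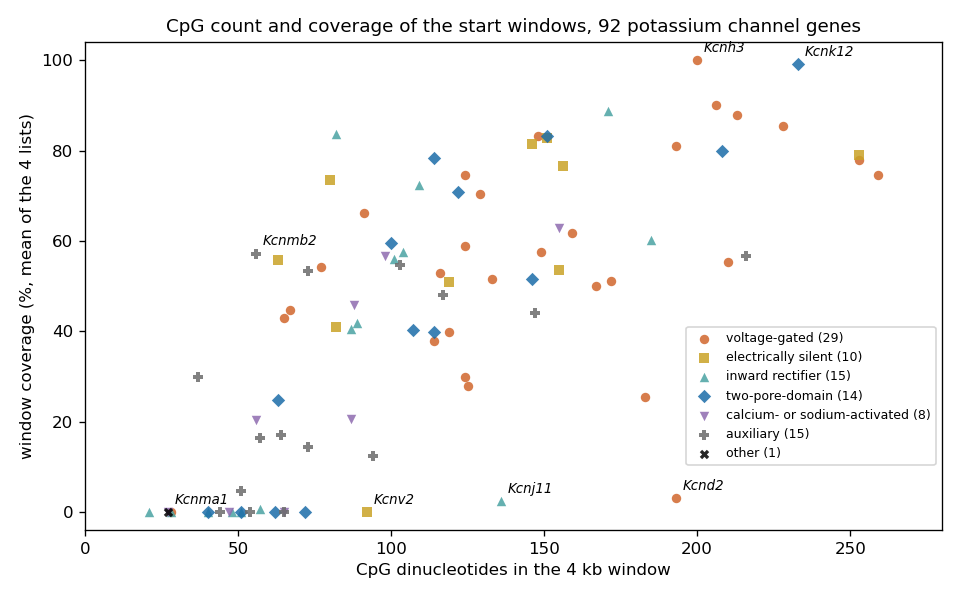
Number of CpG dinucleotides in the start window against window coverage averaged over the 4 lists, 1 point per potassium channel gene, with class shown by colour and symbol. Windows at 0% have 92 CpG or fewer, and *Kcnd2* and *Kcnj11* are CpG-rich with little coverage.

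Of the 9 pairs of channel genes with 5′ ends within 100 kb, 4 had 0 lists marking either gene, and 5 differed in the number of lists. *Kcna3*, *Kcna2* and *Kcna10* lie in a row on chromosome 3, 65.0 and 81.9 kb apart, and were marked in 1, 4 and 0 lists. *Kcnj5* was marked in 4 lists and *Kcnj1*, 28.1 kb away on chromosome 9, in 0. *Kcna6* was marked in 4 and *Kcna1*, 94.3 kb away on chromosome 6, in 0 by its outermost 5′ end but in 4 at the start 1.59 kb inside. *Kcnj9* and *Kcnj10*, 11.9 kb apart, were both marked in 0 lists but differed in mean window coverage, at 0.750% and 41.8%. The remaining pairs were *Kcnmb1* and *Kcnip1*, *Kcnj16* and *Kcnj2*, and *Kcne2* and *Kcne1*, with 0 lists marking either gene, and *Kcnk5* and *Kcnk16*, with 1 and 0. Mean window coverage was 0% for *Kcnmb1* and 17.1% for *Kcnip1*, and 0% for *Kcnj16* and 40.4% for *Kcnj2*. It was 16.3% for *Kcne2* and 14.4% for *Kcne1*. *Kcne2* alone of the genes in these pairs had more coverage in MGE (47.8%) than in CGE (17.4%), LGE and CTX (both 0%). Its peaks were weak, with −log10 q of 1.45 in MGE and 1.92 and 2.65 in CGE, and none had q under 0.001.

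Other ion channel families, taken by gene symbol alone, were marked to different extents. Of 25 genes with calcium channel symbols (Cacna, Cacnb and Cacng) 8 were marked in all lists (32%) and of 14 sodium channel genes (Scn) 3 (21.4%). Of 4 pacemaker channel genes (Hcn) 2 were so marked (50%) and of 6 chloride channel genes (Clcn) 0, against 7.77% of all genes. The median of the window coverage averaged over the lists was 50.5% in potassium channel genes, 39.7% in calcium, 10.2% in sodium, 56.4% in pacemaker and 0% in chloride channel genes, and 0% over all genes. The lists are small, and no difference between the families was tested.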

How the data were processed

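CUT&Tag for H3K27me3 was performed by the authors on 11 samples of 4 regions. Per the study's methods the authors aligned reads to GRCm38 with Bowtie2, removed blacklisted regions and PCR duplicates (Picard), merged the replicates of each region and called broad peaks with MACS, whose version and control are not given in the sources used here. The deposited lists give each peak a fold enrichment, which is a ratio to its surroundings, and a q-value as −log10, all q under 0.1. Merging weighs samples by their reads, and a region with more reads can yield more peaks. Where a region has 3 samples, 2 share a number in their titles. The study describes 2 biological replicates per region, so such a pair is likely 1 replicate.

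Coverage is the share of bases under the union of peaks, computed with Python 3.11.15 and pandas 2.3.3 and tested on simulated intervals. Genes came from GENCODE M21, promoter sequences from RefSeq. The members and lists were chosen with earlier results of these data known. Genes named are those marked in all lists, those ranging by at least 50 points, the best-covered of each subfamily, the 10 with the highest body coverage, neighbours within 100 kb, and 20 fixed for known roles in neurons or glia, 65 in all. *Kcnj11*, *Kcnj13*, *Kcnj14*, *Kcnj15*, *Kcng4*, *Kcnv2*, *Kcnh6*, *Kcnn3*, *Kcnab2*, *Kcnab3* and *Kcnip3* were named after their values were seen. Alternatives changed the peaks, the window or the threshold. Genes on chromosome X were left out of the counts. The results of 4 single genes enter the counts and means and are not reported here.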

Additional observations from a re-analysis of the deposited data

How the results depend on the processing

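No paired analysis was possible because each region is 1 merged list, and for the same reason no replicate could be left out. With the 2 kb upstream only, marked genes numbered 21 (MGE), 24 (CGE), 21 (LGE) and 23 (CTX), 17 in all 4 lists, and mean coverage was 25.9%, 27.7%, 24.2% and 29.4%. With any covered base, 68 were counted in MGE, 68 in LGE and 64 in all lists, and at 25% 57 in all lists. At 75% the counts were 15, 19, 18 and 20, and 13 in all lists. Shares of all genes are not given for these windows and thresholds, so these counts do not compare the channel genes with genes at large. Body coverage without the first 2 kb was 5.43%, 7.27%, 6.02% and 6.75%. With q under 0.001, 10 genes ranged by at least 50 points. CTX was below every eminence by 25 points in 1 gene (*Kcnk5*) with q under 0.001, with equal numbers of peaks and with equal covered bases, and by any amount in 5 with equal covered bases. The counts of CTX above or below by any amount, the shares of all genes under changed peaks and the mean without the 6 genes were chosen after seeing the data. CTX minus the mean of the eminences reversed for *Kcna3* (-13.9 with equal numbers of peaks and with equal covered bases) and *Kcnmb4* (16.6 with q under 0.001, 7.95 with 1 kb on either side); the cause was not tested. Of the 37 genes marked in all lists, 36 were so under all 4 changes of the peaks, and 15 with the upstream window. The other 107 summary values and 437 values of named genes stayed within 1.5 times or within the limits set for a change, and 63 values of named genes moved without turning sign. The lists hold no read counts per peak and the merged libraries differ in depth, which limits any statement on small differences between regions.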

Other observations

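Outside the 92 genes, 2 symbols starting with Kcn lie on chromosome X. *Kcnd1*, the remaining gene of the Kcnd subfamily, had no covered base in its start window or body in any list. *Kcne1l*, an auxiliary subunit gene, had 30.2% (MGE), 35.0% (CGE), 26.2% (LGE) and 31.4% (CTX) of its window covered, and its body was covered over 68.2%, 80.5%, 68.0% and 67.5%.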
